A study of Bos taurus with 30 samples.

Results

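The miRNAs described here run from bta-miR-2286 to bta-miR-2490 in the registry, numbers given to miRNAs first found in cattle. They were chosen by number alone, with no measured value, and they made up 241 of the 1030 mature miRNAs in the table, from 207 precursors. A read was present in at least 1 library for 159 of them, and only 37 were abundant enough to be tested between diets.

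A miRNA is a short RNA cut from a hairpin precursor, and it lowers the translation and stability of mRNAs that carry a match to its seed. Each hairpin has a 5p and a 3p arm, either of which can be kept as the mature miRNA while the other is degraded. Many hairpins lie inside the introns of protein-coding genes and can be transcribed with them. The arcuate nucleus (ARC) of the hypothalamus receives signals of metabolic status and takes part in the control of appetite and of the reproductive axis.

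Small RNA was sequenced from the ARC of 30 Holstein-Friesian bull calves, with 1 library per calf, to ask whether early-life plane of nutrition alters miRNA in this region. From 2 to 12 weeks of age, 15 calves were fed a high (HI) plane of nutrition, of 1.5 kg of milk replacer in 10 litres per day with concentrates ad libitum, for an expected gain of 1.0 kg per day. The other 15 calves were fed a moderate (MOD) plane, of 0.5 kg of milk replacer in 4 litres and 0.5 kg of concentrates per day, for an expected gain of 0.5 kg per day. All calves were of 1 breed and sex and the ARC was collected at 12 weeks, with no unfed or older group. Levels are in CPM, the reads of a miRNA relative to a library size that the authors had scaled.

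The libraries held between 6292485 and 21078877 reads on miRNAs, and 9 of them (3 HI and 6 MOD) held at least 17195805. Neuronal miRNAs were high in all libraries, with a median of 44294 CPM for miR-9-5p. In 9 libraries (5 HI and 4 MOD) pituitary miRNAs were also high. The summed level of a list of 10 pituitary markers ranged from 10003 to 100739 CPM in these 9 and from 2289 to 7130 CPM in the other 21. The summed level of 8 neuronal markers ranged from 18077 to 61528 CPM in the 9 and from 50519 to 89286 CPM in the other 21. No marker of either list was at 0 throughout a group.

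Of the 241 cattle-discovered miRNAs, 50 were above 0 in all 30 libraries, 109 in some, and 82 (34.0%) in none. Among the 789 other miRNAs of the table, 85 (10.8%) were at 0 in every library. For the large bovine miR-2284 and miR-2285 family, whose numbers come just before, the figure was 3 of 148. A level of 0 means that no read was counted at this depth, where 3 reads correspond to 0.138 to 0.558 CPM depending on the library. By arm, 26 of 35 miRNAs named 5p, 31 of 35 named 3p and 102 of 171 with no arm in their name were above 0 somewhere. Of the 159 detected, 40 were above 0 in at most 5 libraries, and 18 of these in a single library.

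Together the cattle-discovered miRNAs took between 0.0221% and 0.0651% of the reads of a library, with a median of 0.0485%. Their summed level had a median of 499 CPM in the HI calves and 448 CPM in the MOD calves. This summed level was not tested between the diets. The share of reads had a median of 0.0498% in HI and 0.0467% in MOD. That share did not differ detectably between the diets (permutation test of the means, two-sided p = 0.360). A library held between 78 and 119 of them above 0, with a mean of 94.7 ± 9.95 (SD, n = 30). The number followed depth, with means of 107.3 in the 9 deep and 89.3 in the 21 shallow libraries. After every library was thinned to the reads of the shallowest, the expected number was 85.5 ± 6.16 in the HI calves and 85.6 ± 3.44 in the MOD calves (SD, n = 15 each; permutation test, two-sided p = 0.964).

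The signal was uneven over the members. miR-2419-5p alone made up 36.7% of their summed level, the 6 most abundant made up 73.1%, and the 37 tested made up 95.3%. Only miR-2419-5p had a median of at least 100 CPM, compared with 25.5% of the 789 other miRNAs. The miR-2284 and miR-2285 family was alike in this, with 1 of 148 (0.676%) at that level. A further 5 members had medians between 10 and 100 CPM, 32 between 1 and 10 CPM, and the other 121 detected members were under 1 CPM. Of these 121, 69 had a median of 0.

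miR-2419-5p ranged from 63.6 to 281 CPM over the 30 calves, with a median of 165 CPM. miR-2483-5p ranged from 20.4 to 106 CPM (median 56.4 CPM) and miR-2299-5p from 27.2 to 67.6 CPM (median 42.3 CPM). miR-2415-3p, with a median of 24.4 CPM, spanned a much wider range, from 7.38 CPM in calf A42931 to 108 CPM in calf A61973. The ranges of neighbours in this order overlapped, so the order of the medians does not hold in every calf.

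miR-2366 and miR-2336 had almost the same median, 20.1 and 19.8 CPM, and their lowest and highest calves were partly exchanged. Calf A37824 had the lowest miR-2366 (4.46 CPM) and the highest miR-2336 (37.9 CPM). Calf A81983 had the highest miR-2366 (31.5 CPM) and the lowest miR-2336 (12.9 CPM). The next members by median were miR-2339 (9.25 CPM), miR-2387 (7.84 CPM), miR-2478 (6.38 CPM), miR-2460 (6.32 CPM), miR-2483-3p (4.86 CPM) and miR-2435 (4.41 CPM).

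The lower 25 of the tested members had medians between 1.27 and 4.16 CPM. Those above 3 CPM were miR-2443 (4.16 CPM), miR-2484 (4.14 CPM), miR-2350 (4.06 CPM), miR-2320-5p (3.90 CPM), miR-2313-3p (3.88 CPM), miR-2457 (3.39 CPM), miR-2308 (3.24 CPM) and miR-2431-3p (3.08 CPM). Between 2 and 3 CPM were miR-2454-3p (2.88 CPM), miR-2400 (2.75 CPM), miR-2403 (2.55 CPM), miR-2431-5p (2.37 CPM), miR-2419-3p (2.30 CPM), miR-2320-3p (2.25 CPM), miR-2461-3p (2.12 CPM) and miR-2465 (2.05 CPM). Under 2 CPM were miR-2468 (1.93 CPM), miR-2376 (1.85 CPM), miR-2346 (1.66 CPM), miR-2316 (1.54 CPM), miR-2398 (1.50 CPM) and miR-2408 (1.49 CPM). The last 3 to pass the filter on low values were miR-2323 (1.34 CPM), miR-2448-5p (1.34 CPM) and miR-2425-5p (1.27 CPM). The first 3 that did not pass were miR-2450a (1.02 CPM), miR-2448-3p (0.950 CPM) and miR-2474 (0.912 CPM).

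**Figure D1:**
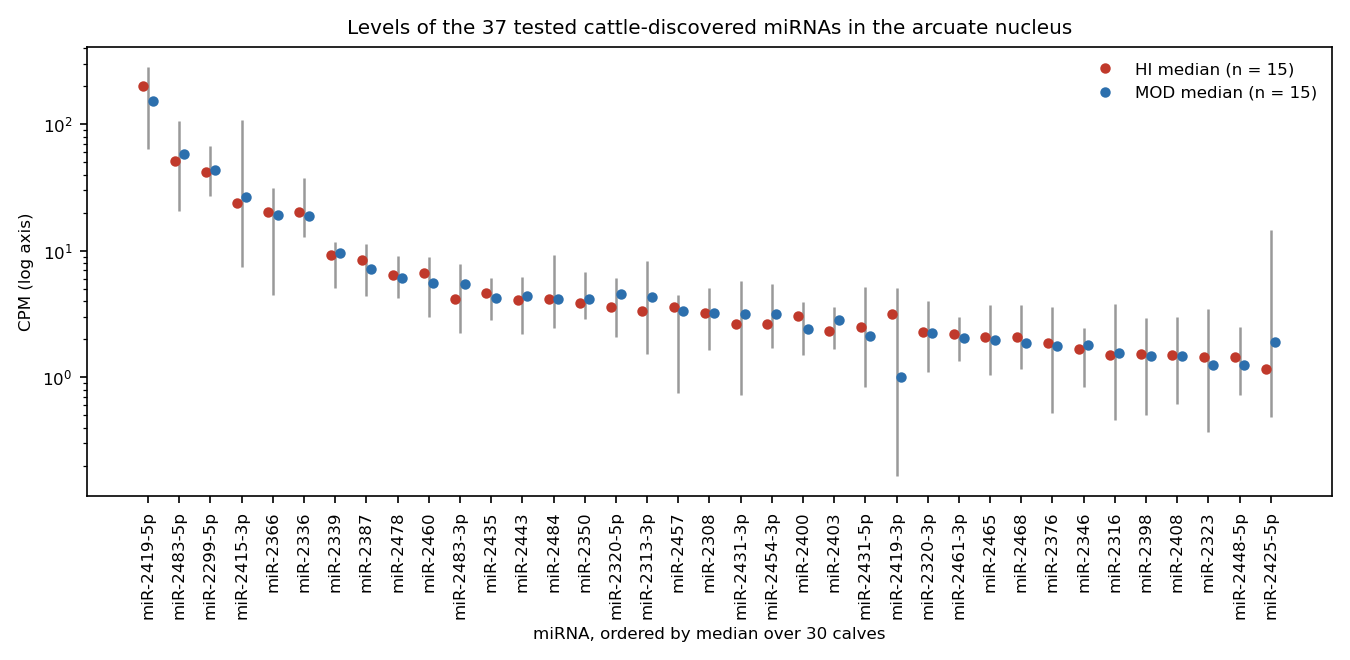
Level in CPM, on a log axis, of each of the 37 tested cattle-discovered miRNAs, ordered by median over the 30 calves; grey lines run from the lowest to the highest calf and points are the medians of the HI and MOD calves (n = 15 each). Medians fall from 165 CPM for miR-2419-5p to 1.27 CPM for miR-2425-5p, whose range of 0.482 to 14.7 CPM stands out among the low members.

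Of the 207 precursors, 202 were found in RefSeq's gene table for the ARS-UCD2.0 assembly, which was used for gene names and neighbours only. A protein-coding gene spanned 158 of them (78.2%), compared with 681 of all 1032 bovine miRNA genes in that table (66.0%). The tested members came from 33 precursors, of which 26 (78.8%) lay within a protein-coding gene. A gene's span says nothing of the strand on which it and the miRNA are transcribed, and host mRNA was not analysed here.

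Some of these genes are named here as examples, picked by hand, and no share of neuronal genes was counted or tested. The miR-2366 precursor lies within MAP1A, which encodes a microtubule-associated protein of neurons, and that of miR-2483 within TENM1, which encodes a cell surface protein of the teneurin family. miR-2350 lies within BIN1, a membrane-shaping protein, and miR-2450a within HTT, which encodes huntingtin. Others lie within genes of general function, such as miR-2339 in ELAC2 (tRNA maturation), miR-2387 in GTF2IRD1 (a transcription factor), miR-2454 in DNMT1 (maintenance of DNA methylation) and miR-2460 in FGF1 (a growth factor). The precursors of miR-2419 (between NOD1 and ZNRF2) and miR-2336 (between VPS53 and RFLNB) lie in no annotated gene. Those of miR-2415 and miR-2431 lie within lncRNA genes. miR-2443 lies within 10 kb of let-7 genes, and 15 member precursors in all had another miRNA gene that near.

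Spread between calves was compared with the spread that read counting alone would give, as an index that is 1 for counting error only. The index was over 2 for 27 of the 37 tested members and under 1.5 for 8. miR-2346 (0.929), miR-2465 (1.15), miR-2320-3p (1.17) and miR-2435 (1.26) were among the latter, so their calves differed little more than counting would make them. The index was over 10 for 7 members, led by miR-2415-3p (152), miR-2419-5p (127), miR-2483-5p (69.5) and miR-2425-5p (46.6). The coefficient of variation between calves ranged from 15.9% for miR-2435 to 102% for miR-2425-5p, with a median of 28.1%. The index also depends on the number of reads, so its order is not one of relative spread. This coefficient was 31.8% for miR-2419-5p (median 1745 reads) and 29.7% for miR-2484 (median 37.5 reads), with indices of 127 and 3.03. It was 32.6% for miR-2483-5p and 69.2% for miR-2415-3p.

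The values of miR-2425-5p fell apart into low and high calves. In 17 calves (9 HI and 8 MOD) it lay between 0.482 and 1.90 CPM, which corresponds to 3 to 25 reads. In the other 13 (6 HI and 7 MOD) it lay between 6.20 and 14.7 CPM, or 48 to 268 reads. No calf lay between 1.90 and 6.20 CPM, a gap of 3.25-fold, while the next largest step between ordered calves was 1.47-fold. Among gaps with at least 5 calves on each side, on the scale of log2(CPM + 0.25), this one ranked 8 of the 476 tested miRNAs.

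The highest calves for miR-2425-5p were A37840 (14.7 CPM) and A93760 (12.5 CPM) of the HI diet, with A51980 of the MOD diet between them. The other arm, miR-2425-3p, was above 0 in 23 calves with a median of 0.134 CPM and was too low to test. It reached at most 0.245 CPM in the 17 calves under the gap and was at 0 in 7 of them. In the 13 calves over the gap it ranged from 0.138 to 1.55 CPM, or 1 to 26 reads, and exceeded 0.245 CPM in 11. The value of 0.245 CPM was 2 reads in A57826, and A61973 exceeded it at 0.258 CPM with 2 reads. This cut came from the same data and lies near the floor. Both diets, both depth classes (5 deep libraries over the gap and 4 under it) and both pituitary classes (3 high libraries over and 6 under) lay on each side. The miR-2425 precursor lies within NCKAP5L. The split itself was not tested against genotype or any other property of the calves. Only the level of miR-2425-5p was compared, with diet, pituitary class and cell type lists, as for the other tested members below.

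**Figure D2:**
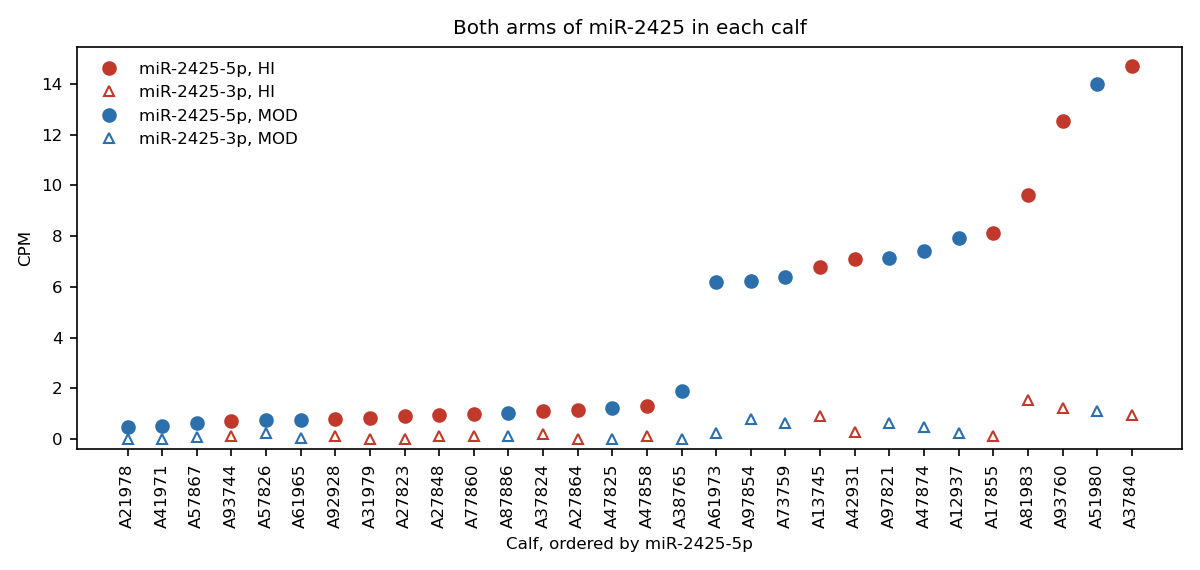
Level in CPM of miR-2425-5p (filled circles) and miR-2425-3p (open triangles) in each of the 30 calves, ordered by miR-2425-5p and coloured by diet. The 17 calves on the left lie at or under 1.90 CPM and the 13 on the right at or over 6.20 CPM, with HI and MOD calves in both.

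Between the diets, limma with Benjamini-Hochberg adjustment called 0 of the 37 tested members, where a call needed a fold change over 1.5 and an adjusted p under 0.1, and it also called 0 of the 476 tested miRNAs (0%). edgeR's quasi-likelihood test on recovered reads also called 0 members, and DESeq2 called 1, miR-2419-3p, which was also the only one of the 476 miRNAs it called (0.210%). At an unadjusted p under 0.05, 5 of the 37 members (13.5%) passed, compared with 21 of the 476 (4.41%). With library size only as the scaling, the 5 fell to 2 (5.41%), compared with 10 of the 476 (2.10%). Of these 5, miR-2419-3p, miR-2419-5p, miR-2387 and miR-2465 were higher and miR-2483-3p was lower in the HI calves. Both arms of miR-2419 come from 1 hairpin and varied together (Pearson's r = 0.89), so the 5 are not independent. Over the 37 members the median log2 difference was 0.03, with 21 higher and 16 lower in the HI calves, and over all 476 it was -0.00, with 235 higher and 241 lower.

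miR-2419-3p ranged from 0.861 to 5.11 CPM in the HI calves (median 3.16 CPM) and from 0.166 to 3.77 CPM in the MOD calves (median 1.01 CPM). The lowest MOD value, in A41971, lies under the floor of 3 reads in that library (0.497 CPM). The groups overlapped, with 14 of 15 HI calves above the MOD median and 14 of 15 MOD calves below the HI median. The level was 2.13-fold higher in HI, a log2 difference of 1.09 (SE 0.28, limma adjusted p = 0.256). Without A77860, the lowest HI calf, the adjusted p was 0.0635, and without A97854, the highest MOD calf, it was 0.0640, so that either omission gave a call, the only one among the 476 miRNAs (0.210%) in each case.

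The abundant arm of the same hairpin, miR-2419-5p, ranged from 113 to 281 CPM in the HI calves (median 199 CPM) and from 63.6 to 266 CPM in the MOD calves (median 152 CPM). All but 1 of the MOD calves lay below the HI median, the exception being A97854, which was also the highest MOD calf for miR-2419-3p. The log2 difference was 0.49 (SE 0.15, adjusted p = 0.612). In both arms A27823 was the highest of all calves and A41971 the lowest.

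The other 3 members differed by less. miR-2387 had medians of 8.41 CPM in HI (5.76 to 11.3 CPM) and 7.16 CPM in MOD (4.38 to 9.89 CPM), a log2 difference of 0.26 (SE 0.11, adjusted p = 0.912). miR-2483-3p had medians of 4.19 CPM in HI (2.23 to 7.83 CPM) and 5.45 CPM in MOD (3.81 to 7.53 CPM), a log2 difference of -0.29 (SE 0.13, adjusted p = 0.912). miR-2465 had medians of 2.09 CPM in HI (1.51 to 3.71 CPM) and 1.99 CPM in MOD (1.04 to 2.26 CPM), a log2 difference of 0.23 (SE 0.11, adjusted p = 0.912). The ranges overlapped for all 3. Of the HI calves, 12 lay above the MOD median for miR-2387, 13 below it for miR-2483-3p and 9 above it for miR-2465.

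**Figure D3:**
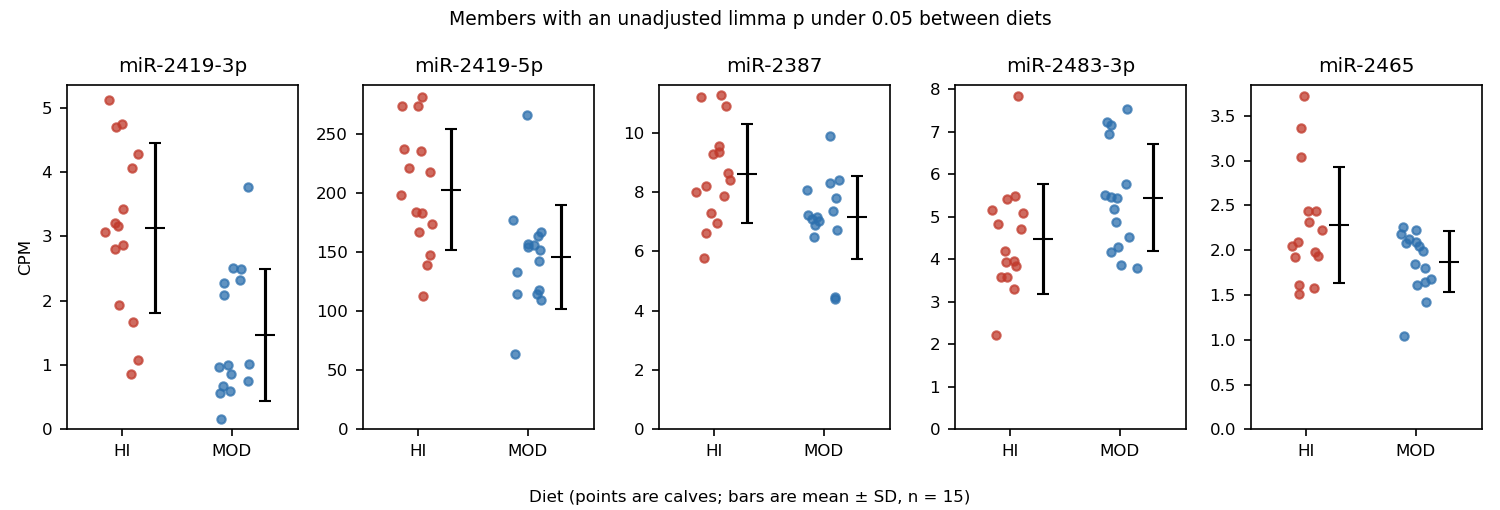
Level in CPM of the 5 members with an unadjusted limma p under 0.05 between diets; each point is 1 calf and bars are the mean ± SD (n = 15 per diet). For miR-2419-3p most HI calves sit above the MOD median of 1.01 CPM, while the clouds overlap in all panels.

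Single members were also compared with two-sided permutation tests, unadjusted. All had already been picked by an unadjusted limma p under 0.05 in the same calves. Their p over all calves thus repeat that comparison and add no support. The p was 0.00104 for miR-2419-3p, 0.00242 for miR-2419-5p, 0.0157 for miR-2387, 0.0354 for miR-2483-3p and 0.0445 for miR-2465. For miR-2419-3p the log2 difference was 1.04 in the 21 shallow and 1.18 in the 9 deep libraries. It was 1.40 in the 9 pituitary-high libraries (5 HI and 4 MOD, A41971 among the MOD) and 0.98 in the other 21. It was 1.57 among the 9 calves with the lowest animal codes, a class that earlier work on these values had set apart and that held 7 HI and 2 MOD calves (exact permutation test, p = 0.0556, the smallest this class allows), and 1.03 among the other 21. miR-2419-5p was also higher in HI in each of these classes, by log2 differences of 0.40 to 0.74.

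miR-2387 was higher in HI by 0.31 among the 21 calves with other codes and by 0.04 among the 9 with low codes. It was higher in HI by 0.29 in both pituitary classes. For miR-2465 the difference was 0.36 in the shallow and -0.03 in the deep libraries. miR-2483-3p was lower in HI in every class, by -0.28 to -0.10.

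The remaining 32 tested members had log2 differences between -0.27 (miR-2313-3p) and 0.21 (miR-2400), with adjusted p of 0.912 or more. The standard error over the tested members had a median of 0.13, and was largest for miR-2425-5p (0.54, log2 difference 0.02) and miR-2415-3p (0.33, log2 difference -0.19).

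**Figure D4:**
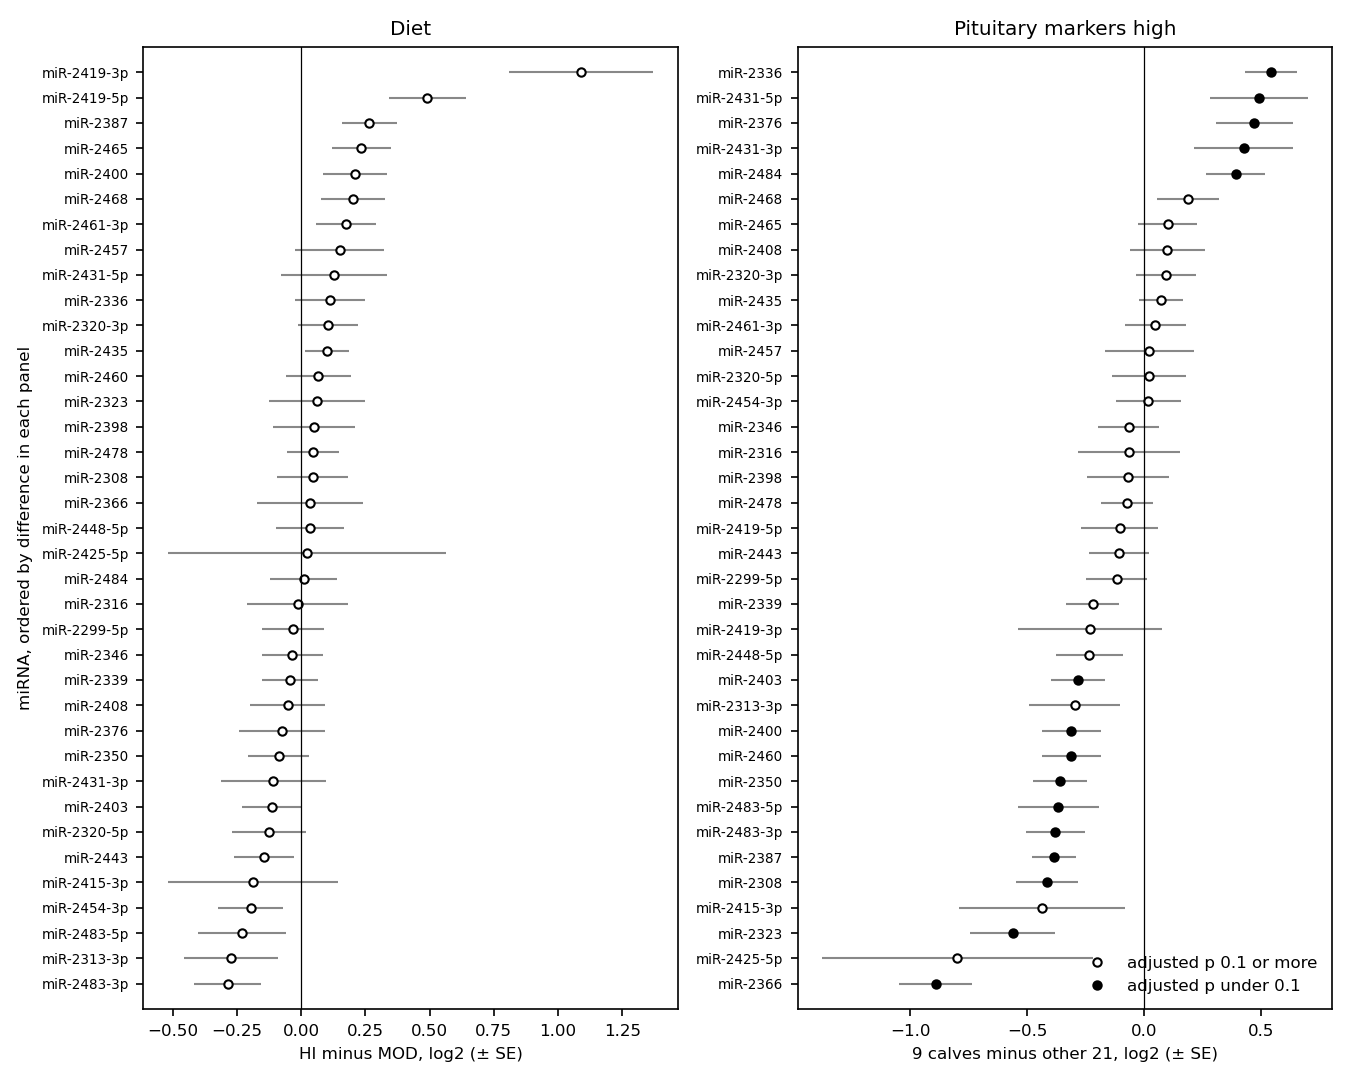
Log2 differences with standard errors from limma for the 37 tested members, between diets (left, HI minus MOD, 15 calves each) and between the 9 pituitary-high libraries and the other 21 with diet in the model (right); filled points have an adjusted p under 0.1. No point is filled on the left, and 15 are filled on the right, from miR-2366 (-0.89) to miR-2336 (0.54).

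The 9 libraries with high pituitary markers were compared with the other 21 in the same model, with diet as a term. Markers of some other cell types also differed in level between these classes, though no test of these lists between the classes was run. The summed level of 4 vascular markers had a median of 211656 CPM (57038 to 338016 CPM) in the 9 and 104303 CPM (49072 to 207288 CPM) in the other 21. Most of this sum was miR-143 (medians 189730 and 86998 CPM), while the endothelial miR-126-3p had medians of 1995 and 2320 CPM and miR-126-5p of 17552 and 15868 CPM, so the list did not move as one. The summed level of 4 oligodendrocyte markers had a median of 2244 CPM (1425 to 4711 CPM) in the 9 and 2976 CPM (2176 to 13877 CPM) in the 21. The ranges of both sums overlapped, and no marker was at 0 throughout a class. Medians of the summed ependyma and choroid plexus markers were close, at 30659 CPM in the 9 and 31792 CPM in the 21. So were those of the erythroid markers, at 28996 and 29058 CPM. The part of these lists and of the neuronal list in the differences below was not tested. In bulk tissue, fewer cells of a type and less RNA per cell cannot be told apart. miR-2366 was the only member called by the same thresholds, 1 of 37 against 118 of 476 miRNAs (24.8%). It ranged from 4.46 to 22.4 CPM in the 9 libraries (median 12.4 CPM) and from 16.9 to 31.5 CPM in the other 21 (median 22.3 CPM). The ranges overlapped only between 16.9 and 22.4 CPM. The log2 difference was -0.89 (SE 0.16, limma adjusted p = 3.4e-05).

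At an adjusted p under 0.1 whatever the fold, 5 members (13.5%) were higher, against 27.7% of all tested miRNAs, and 10 (27.0%) were lower, against 33.2%. The 5 higher were miR-2336 (log2 difference 0.54), miR-2431-5p (0.49), miR-2376 (0.47), miR-2431-3p (0.42) and miR-2484 (0.39). The lower ones besides miR-2366 were miR-2323 (-0.56), miR-2308 (-0.42), miR-2387 (-0.39), miR-2483-3p (-0.38), miR-2483-5p (-0.37), miR-2350 (-0.36), miR-2460 (-0.31), miR-2400 (-0.31) and miR-2403 (-0.28). Under the authors' scaling the CPM of a library summed to between 825695 and 1429910. The highest sums were in A37824, A41971, A31979, A17855 and A42931, all pituitary-high, while A93744, also pituitary-high, was near the lowest (831019). Scaling by library size only was not run for this comparison, so the part of scaling in these differences was not tested. Without A37824, the library with the highest pituitary score, both arms of miR-2431, miR-2483-5p, miR-2460 and miR-2400 were no longer under 0.1, with adjusted p of 0.110 to 0.234. The log2 difference of miR-2366 was -0.72 without this library (adjusted p = 1.7e-05). No difference between these classes was detected for either arm of miR-2419 (log2 differences -0.11 for 5p and -0.23 for 3p, adjusted p of 0.618 and 0.549).

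How the members varied together was described over the 666 pairs of the 37, with Pearson's r of log2(CPM + 0.25), permutation p and Benjamini-Hochberg adjustment over all pairs. Pairs of other tested miRNAs were not computed, so no share over all of them can be set beside these counts. The median absolute r was 0.170. An adjusted p under 0.05 was reached by 19 pairs by r over all 30 calves, 16 positive and 3 negative, and by 3 pairs within the 21 calves without high pituitary markers, the arms of miR-2419, the arms of miR-2431 and miR-2308 with miR-2376. Only 3 pairs also had an absolute r of 0.7 or more over the 30 calves, and 2 of them were the 5p and 3p arms of 1 hairpin.

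The arms of miR-2419 had the highest r of all pairs, 0.89 over 30 calves (permutation p = 1e-05, the smallest possible, adjusted p = 0.00333), with a Spearman rho of 0.87 (permutation p = 1e-05, adjusted p = 0.00666). It was 0.87 in the 21 calves, 0.92 in the 9 pituitary-high calves, 0.84 within diets and 0.84 after the 2 calves farthest from its median were left out. By depth it was 0.91 in the shallow and 0.77 in the deep libraries, and by code 0.89 and 0.91.

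The arms of miR-2431 had an r of 0.72 (permutation p = 1e-05, the smallest possible, adjusted p = 0.00333) and a rho of 0.69 (permutation p = 7e-05, adjusted p = 0.0155). It was 0.72 in the 21 calves, 0.51 in the 9, 0.73 in the shallow and 0.60 in the deep libraries, and 0.79 and 0.55 by code. Without the 2 calves farthest from the median it was 0.59 where the median was that of the 3p arm and 0.64 where it was that of the 5p arm. Within the 21 calves the r had a permutation p of 0.00016 (adjusted p = 0.0355), but it was 0.55 without the 2 farthest calves, and rho was 0.69 (permutation p = 0.00076) with an adjusted p of 0.169. The arms of miR-2483 had an r of 0.36 over all calves, and those of miR-2320 an r of 0.09. Their adjusted p were 0.329 and 0.889, and rho was 0.22 and 0.09 with adjusted p of 0.674 and 0.915. For miR-2483, r was -0.05 in the 21 calves and 0.61 in the 9. It was 0.61 in the shallow and -0.02 in the deep libraries, and 0.84 and 0.04 by code. Of the 4 hairpins with both arms tested, 2 thus had an r of 0.7 or more over the 30 calves.

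The balance between the arms also differed from hairpin to hairpin. The 5p arm of miR-2419 had a median of 77.5 times the reads of the 3p arm, with a range of 50.1 to 384, the highest value resting on 1 read of the 3p arm in calf A41971. The median ratio was 57.7 in the HI calves and 134 in the MOD calves, a log2 difference of -0.82 (permutation test, p = 0.00256, adjusted over the 4 hairpins 0.0102). On the scale of log2(CPM + 0.25) used for the single arms, the difference in the ratio was -0.60 (permutation p = 0.0036), and without A41971 it was -0.55 (permutation p = 0.00662), both chosen after seeing the data. The ratio is computed from the same values as the diet differences of the arms above. The median ratio was 11.6 for miR-2483, 1.81 for miR-2320 and 0.798 for miR-2431, and for these 3 the diet difference in the ratio did not pass (permutation tests, adjusted p of 0.701, 0.263 and 0.236).

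The third pair was negative, miR-2366 with miR-2336. Since the calves fell into 2 classes by pituitary markers and these members differ between the classes, r was taken within each, at -0.27 in the 21 calves (permutation p = 0.226, adjusted p = 0.704) and -0.60 in the 9. The relation over all calves did not pass within the larger class. miR-2366 was a member of 11 of the 19 pairs. Of its partners, miR-2350 had an r of 0.66 in the 21 calves (permutation p = 0.00123, adjusted p = 0.205) and miR-2387 one of 0.45 (permutation p = 0.0403, adjusted p = 0.590), while miR-2323 had 0.16 and miR-2308 had 0.28. None of these passed after adjustment within the 21 calves. Between miR-2387 and miR-2308, r was 0.44 in the 21 calves (permutation p = 0.0473, adjusted p = 0.590).

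miR-2308 with miR-2376 passed only within the 21 calves, with an r of 0.76 (permutation p = 3e-05, adjusted p = 0.00999) and a rho of 0.75 (permutation p = 0.0002, adjusted p = 0.0666). It was 0.66 without the 2 farthest calves, 0.79 and 0.88 by depth, 0.76 in the 16 calves with other codes, and 0.81 in HI and 0.79 in MOD. In the 9 pituitary-high calves r was -0.73, and over all 30 it was 0.02. Both members are low, at 34.5 and 18 reads per library by median, and the difference in r between the classes was not tested. miR-2308 lies within ARHGAP39, and miR-2376 lies within TAPBP, which encodes tapasin, a chaperone of antigen presentation.

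**Figure D5:**
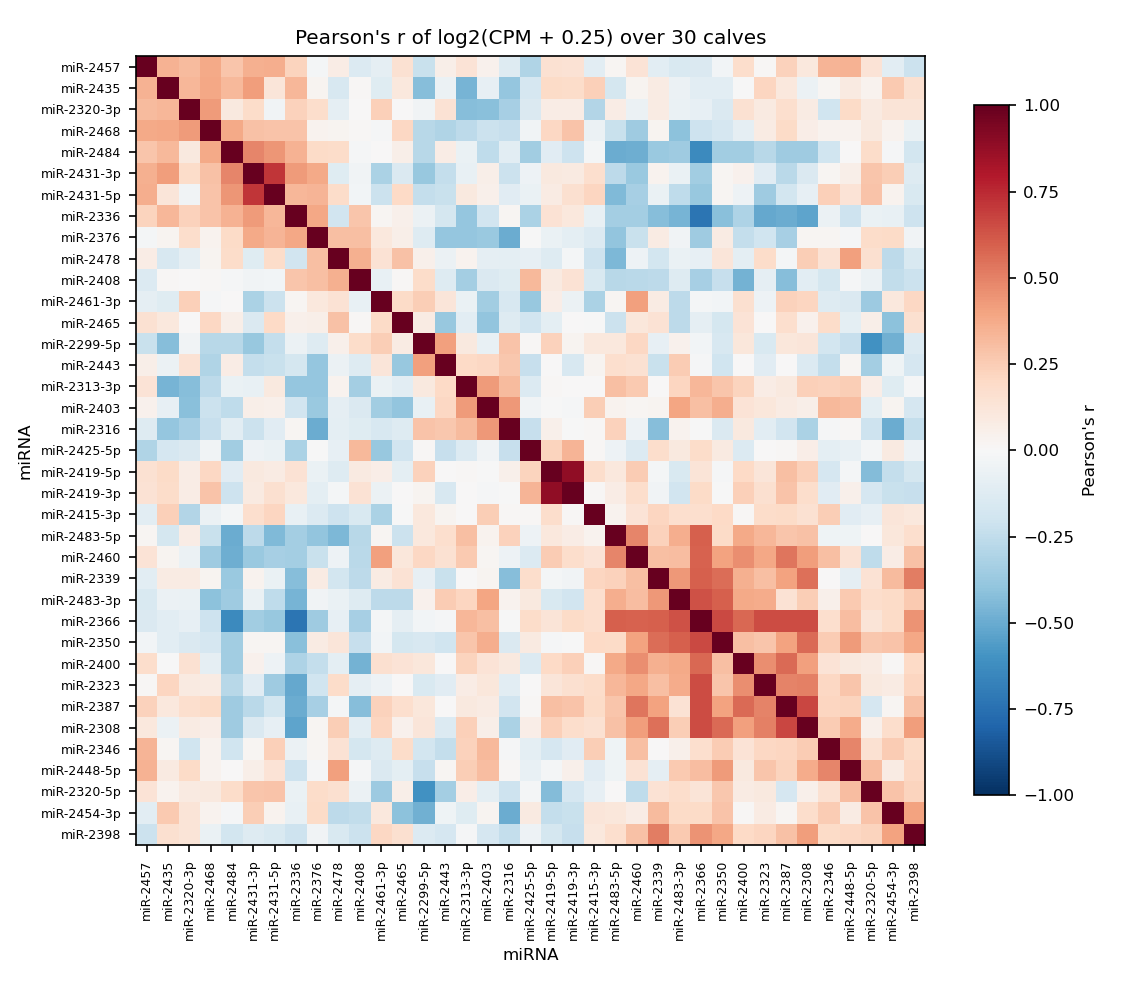
Pearson's r of log2(CPM + 0.25) over the 30 calves for each pair of the 37 tested members, ordered by average linkage; red is positive and blue negative. The arms of miR-2419 and of miR-2431 form the darkest red squares, and a block around miR-2366 is shared by members that are lower in the pituitary-high libraries.

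Within the 21 calves without high pituitary markers, members were also set against the mean log2 level of 6 lists of cell type miRNAs, 222 relations in all, and 4 had an adjusted p under 0.05 by Pearson's r. The same relations were not computed for the other tested miRNAs, so no share over all of them can be set beside the 4. miR-2299-5p rose with the vascular list (r = 0.74, rho = 0.75) and with the oligodendrocyte list (r = 0.69, rho = 0.66). miR-2316 also rose with the oligodendrocyte list (r = 0.70, rho = 0.60) and miR-2320-5p fell with it (r = -0.70, rho = -0.66). Permutation p for r were 0.00014, 0.00042, 0.00051 and 0.00044 in that order, each 0.0283 after adjustment, and by rho 0.00025, 0.00132, 0.00513 and 0.00151, with adjusted p of 0.0555, 0.108, 0.214 and 0.108.

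Without the 2 farthest calves these r were 0.61, 0.66, 0.47 and -0.55 in the same order. They kept their sign in the 15 shallow libraries (0.70, 0.72, 0.60 and -0.68), in the 6 deep ones (0.91, 0.62, 0.89 and -0.81) and in the 16 calves with other codes (0.76, 0.65, 0.67 and -0.68), while the 5 calves with low codes were too few. miR-2299-5p and miR-2320-5p were in turn negatively related to each other, with an r of -0.62 in the 21 calves (permutation p = 0.00253, adjusted over all pairs 0.337) and -0.60 over all 30.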

How the data were processed

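Small RNA of the ARC was sequenced for 15 HI and 15 MOD calves, with diets taken from the sample labels. After trimming, the authors retained reads of 15 to 28 bases, discarded those of other short RNA classes and used miRDeep2 with ARS-UCD1.2 to count known bovine miRNAs. The submitters' processing notes name FastQC 0.11.8, cutadapt 2.6, R 3.4 and edgeR 3.5. The labels name a stranded RNA kit where the methods name a small RNA kit. The signal values the authors deposited are decimals in the form of CPM over scaled library sizes.

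Reads were recovered by dividing by the worth of 1 read in each library, and 94.5% to 97.9% of values up to 200 reads came out whole within 0.1 of a read. The quasi-likelihood test of edgeR on these reads called 0 of the miRNAs between diets. Depth and the floor of 3 reads are given with the results and cover counting error only.

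Low miRNAs were removed by filterByExpr of edgeR at default settings (minimum count 10). limma with a trend was run on log2(CPM + 0.25) over all 476 miRNAs that passed, so a fold change of a low miRNA is understated. A call needed a fold change over 1.5 and an adjusted p under 0.1. Permutation tests used 100000 resamples or were exact, and were two-sided. The spread is between calves. The pituitary class lay above the widest gap in the mean log2 level of the pituitary list.

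Members named with values were both arms of miR-2419, those with an unadjusted diet p under 0.05, the 12 most abundant, both arms of each hairpin with both tested, the 6 strongest pairs, those called for the pituitary class, the 5 of widest range, and the 3 on each side of the filter, and every tested member was named once with its median. The 3p arm of miR-2425, and the other members named with a marker relation, a pair within the 21 calves or an adjusted p under 0.1 between pituitary classes were named after their values were seen. Members and lists were chosen with earlier results of these data known. The code was tested on simulated data. Alternatives covered scaling, filter, pseudocount, count tests, terms for depth, code and pituitary score, and leaving out calves. Mature sequences were not used here.

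The tools were limma 3.58.1, edgeR 4.0.16 and DESeq2 1.42.0 in R 4.3.3, and scipy 1.17.1 in Python 3.11.15.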

Additional observations from a re-analysis of the deposited data

How the results depend on the processing

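No paired analysis was possible because the replicate numbers used here follow sample order and only name calves, and the farm and sire of each calf, which the study balanced between the diets, are not in the labels used here. The number of members called between diets was 1 under DESeq2's Wald test (miR-2419-3p, adjusted p = 0.0562) and 0 under the other alternatives to the test, scaling, filter, pseudocount, covariates and pituitary-high libraries. On leaving out single calves it ranged from 0 to 1, being 1 without HI calf A77860 (adjusted p = 0.0635) and without MOD calf A97854 (adjusted p = 0.0640), each time as the only call among the 476 (0.210%), these being the HI calf with the lowest and the MOD calf with the highest miR-2419-3p. The number with an unadjusted p under 0.05, 5 in the reported result, was 2 with library size only (10 of all 476), 3 with DESeq2's Wald test (21 of 476), 3 with a term for code class (10 of 476), 3 without the pituitary-high libraries (25 of 476) and 8 of 159 with no filter (5.03%, against 3.36% of all 863). It ranged from 3 to 6 on leaving out single calves (14 to 35 of all 476), and was 3 without HI calves A27864 (19 of 476) or A31979 (16 of 476) or MOD calves A38765 (16 of 476) or A61973 (15 of 476). The cause of these changes was not tested, except that no filter adds miRNAs. The log2 difference of miR-2419-3p was lowest with a pseudocount of 1 (0.77) and ranged from 0.96 to 1.19 without single calves. Neither the diet differences of the 5 members with an unadjusted p under 0.05 nor the pituitary-class differences of the 15 with an adjusted p under 0.1 changed sign under the alternatives run for them, and other members were not followed, while the sign of miR-2465 between diets and of some pairs differed between classes of libraries, as given above. A filter of 10 reads in every library left 22 members to test, and 1 CPM in 15 libraries left 38. For the pituitary class edgeR called 2 members and 114 of the 476 miRNAs (23.9%), adding miR-2336 at a log2 difference of 0.59 where limma gave 0.54. miR-2483-5p missed an adjusted p of 0.1 with edgeR (0.247) and with DESeq2's size factors (0.106). Depth limits the members at about 1 CPM, whose median reads per library start at 11.5 among those tested.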
